A study of Homo sapiens with 16 samples.

Results

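The genes described here encode receptors for the phorbol ester PMA in T cells and the diacylglycerol kinases that act on the lipid PMA stands in for. They are the 10 genes PRKCA, PRKCB, PRKCD, PRKCE, PRKCH, PRKCQ, PRKD2, RASGRP1, DGKA and DGKZ, chosen by symbol, out of 58295 genes quantified, and all 10 passed the filter on low counts. The cells were JSL1, a clone of the human leukemic T cell line Jurkat. Wild-type (WT) cells were compared with a line labelled as an HDAC7 E9 knock-out (dE9) and a line labelled as an HDAC7 E9 knock-in (iE9), each made with CRISPR at exon 9 of HDAC7, a histone deacetylase of T cells. Every line was kept in growth medium or given 20 ng/mL PMA, and the labels put all samples at 48 h although the design text sets 0 h against 48 h. There were 2 WT, 3 dE9 and 3 iE9 libraries for each treatment, and the labels do not say that they came from separate cultures or clones, so the p-values measure the spread between these libraries, which may be technical.

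Diacylglycerol is made at the membrane when phospholipase C cleaves an inositol lipid after antigen receptor engagement. It is bound by C1 domains, small zinc fingers that recruit classical and calcium-independent protein kinase C (PKC) isozymes, protein kinase D and the Ras activator RasGRP1 to the membrane, and diacylglycerol kinases end the signal by turning the lipid into phosphatidic acid. Phorbol esters occupy the same C1 domains and are broken down slowly, and long exposure is known to deplete some PKC proteins. The values below are RNA levels and do not report protein.

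The C1 domain is the feature that makes these proteins phorbol ester receptors, so its coding sequence is shown for 1 gene of each class of receptor. A script read the GENCODE release 29 coding sequences and searched their translation for the histidines and cysteines that hold the zinc ions, at fixed spacing. The counts that follow are for the most abundant coding transcript of each gene. The signature was found in 8 of the 10 genes, with 2 copies in each of the 6 PKC genes. There was 1 copy in the RASGRP1 transcript and 1 in that of PRKD2, which has 721 codons. Copies coded only by other transcripts of a gene are not counted, so 1 copy is not a count for the whole PRKD2 gene. The signature was found in neither DGKA nor DGKZ at this spacing, which says only that these letters do not occur in that order there. The capitals mark the codons of the conserved histidines and cysteines, and each stretch runs 5′ to 3′ over 150 bases of the most abundant coding transcript.
PRKCA second signature: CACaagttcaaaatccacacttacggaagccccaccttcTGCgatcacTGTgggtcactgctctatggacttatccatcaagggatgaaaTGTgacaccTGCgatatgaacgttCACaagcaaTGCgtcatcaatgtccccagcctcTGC
PRKCQ second signature: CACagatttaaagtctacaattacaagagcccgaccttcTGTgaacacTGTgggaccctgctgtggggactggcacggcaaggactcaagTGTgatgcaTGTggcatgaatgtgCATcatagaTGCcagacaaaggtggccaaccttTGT
PRKD2 signature: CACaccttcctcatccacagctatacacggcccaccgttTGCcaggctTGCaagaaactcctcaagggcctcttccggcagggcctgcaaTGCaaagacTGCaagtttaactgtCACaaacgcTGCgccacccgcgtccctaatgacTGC
RASGRP1 signature: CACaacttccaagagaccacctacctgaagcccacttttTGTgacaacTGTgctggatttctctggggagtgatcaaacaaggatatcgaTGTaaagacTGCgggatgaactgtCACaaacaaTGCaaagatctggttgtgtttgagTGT
The PRKCA and PRKCQ stretches were identical at 99 of 150 bases (66.0%), PRKCA and PRKD2 at 90 (60.0%), and PRKCA and RASGRP1 at 85 (56.7%). PRKCQ and PRKD2 were the least alike of the 6 pairs, at 72 bases (48.0%).

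All positions are on hg38 as GENCODE release 29 gives them. PRKCA (ENSG00000154229) lies at chr17:66302636-66810743 and PRKCB (ENSG00000166501) at chr16:23835946-24220611, both on the plus strand. PRKCD (ENSG00000163932) is at chr3:53156009-53192717, PRKCE (ENSG00000171132) at chr2:45651345-46187990 and PRKCH (ENSG00000027075) at chr14:61187559-61550976, also on the plus strand. PRKCQ (ENSG00000065675) is at chr10:6427143-6580301, PRKD2 (ENSG00000105287) at chr19:46674275-46717127 and RASGRP1 (ENSG00000172575) at chr15:38488103-38565575, all on the minus strand. DGKA (ENSG00000065357) at chr12:55927319-55954027 and DGKZ (ENSG00000149091) at chr11:46332905-46380554 are on the plus strand. DGKA overlaps PYM1, a gene of the opposite strand at a mean CPM (counts scaled to a common library total) of 30.1, and the strandedness of the libraries is not given in the sources used here, so reads from the overlap cannot be told apart.

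Library depth ran from 14536537 to 21888896 estimated counts. All 12 T cell markers fixed for the check of the cell type had a mean of at least 1 CPM in each of the 6 groups. Some of them varied widely between single libraries, CD2 from 0.0616 to 26.9, TRAC from 2.77 to 661 and LAT from 15.8 to 1667 CPM. Others varied less, such as LCK from 277 to 561 CPM. The 4 B cell markers summed to 206 to 403 CPM in the libraries labelled iE9 with PMA and to at most 155 CPM in the others. In iE9 with PMA only 1 of these 4 genes had a mean of at least 1 CPM, so the sum is almost all from 1 gene. The part of this in the results was not tested. The mitochondrial share of counts was 9.17% without and 12.81% with PMA in the iE9 libraries that carry the number 1, and 3.0% to 6.39% in the other 14. The estimated share of HDAC7 with exon 9 was 47.1% ± 0.636 (SD, n = 2) in unstimulated WT, 3.45% ± 3.46 (n = 3) in dE9 and 61.6% ± 11.9 (n = 3) in iE9. With PMA it was 48.4% ± 7.56 in WT, 0.226% ± 0.391 in dE9 and 49.9% ± 11.4 in iE9, so the range of the libraries labelled iE9 overlapped that of WT under PMA.

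**Figure D1:**
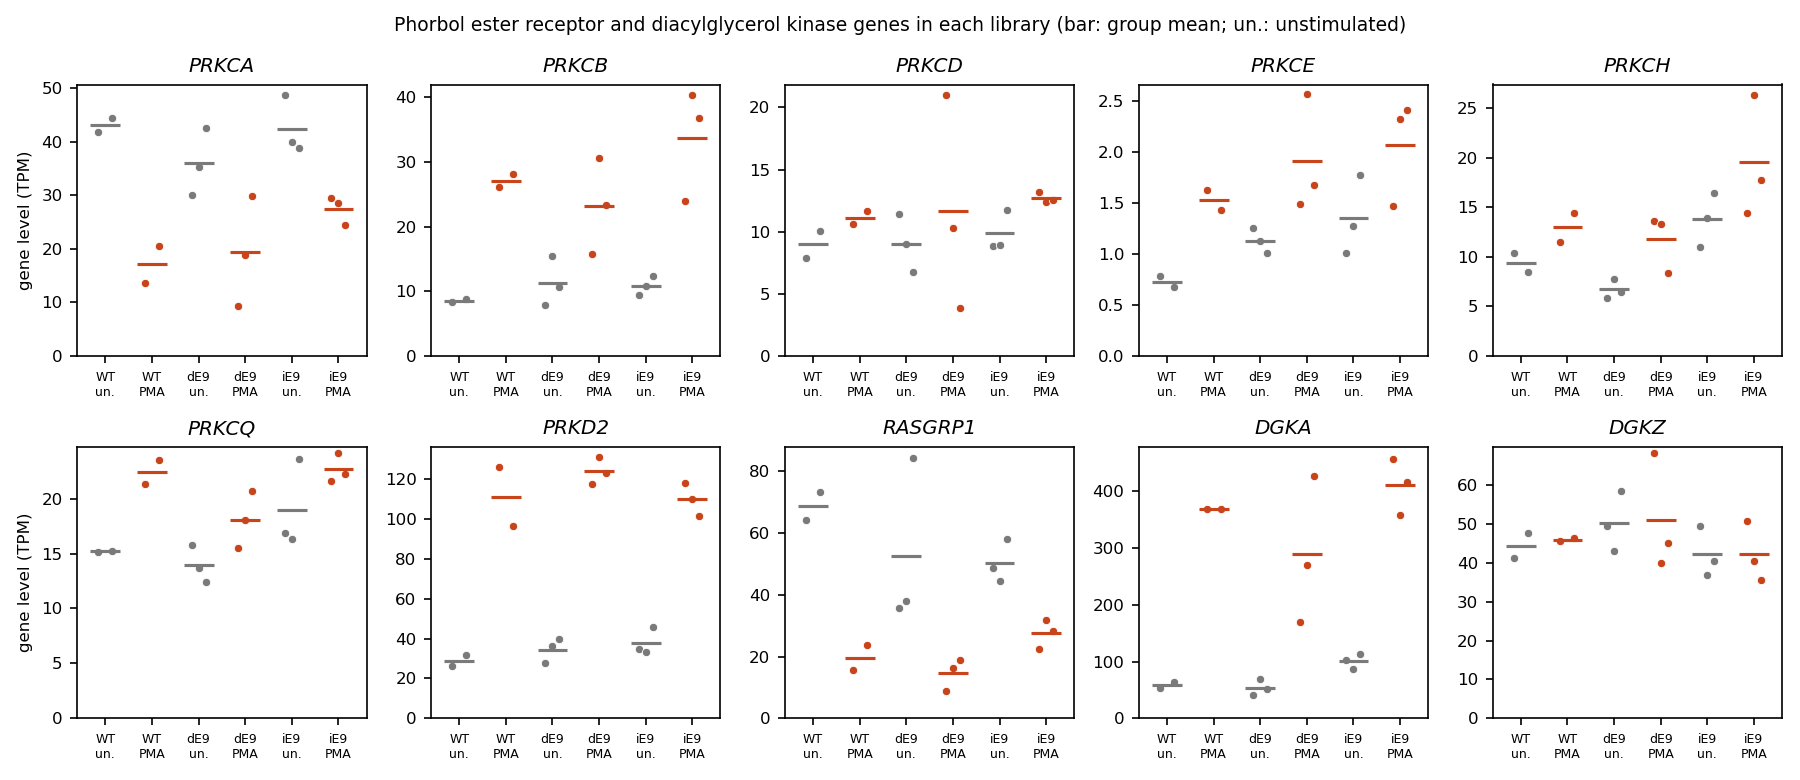
Gene level in TPM (abundance corrected for transcript length and library depth) of the 10 genes in each of the 16 libraries. Each point is a library, each bar a group mean, grey is unstimulated and red is PMA; DGKA, PRKD2 and PRKCB are higher and RASGRP1 and PRKCA lower in every PMA library than in every unstimulated library of the same line.

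Before stimulation, RASGRP1 and DGKA were the most abundant of the 10 genes in WT cells, at 68.7 ± 6.35 and 58.4 ± 7.03 TPM (SD, n = 2). DGKZ followed at 44.4 ± 4.68 TPM and PRKCA at 43.2 ± 1.85 TPM, and the libraries of these neighbours overlapped. PRKD2 stood at 28.8 ± 3.89 TPM and PRKCQ at 15.2 ± 0.0492 TPM. PRKCH (9.40 TPM), PRKCD (8.98 TPM) and PRKCB (8.53 TPM) were at levels that overlapped between neighbours, and PRKCE was lowest at 0.728 TPM. After 48 h of PMA the order in WT began with DGKA at 369 ± 0.129 TPM, PRKD2 at 111 ± 21.0 TPM and DGKZ at 45.9 ± 0.577 TPM, with RASGRP1 in the sixth place. The same 3 genes led in that order in dE9 and in iE9 with PMA.

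PMA against growth medium asks how the cells' own receptors for the drug were expressed after long exposure. In WT, DGKA, PRKD2 and PRKCB rose and RASGRP1 and PRKCA fell, and the other 5 genes did not pass the test. A gene is said to rise or fall where edgeR's quasi-likelihood test gave a Benjamini-Hochberg adjusted p under 0.05 over the 18073 genes tested. These 5 of 10 genes stand beside 22.3% of all genes called in WT (11.1% higher and 11.3% lower). In dE9 the same 5 genes were called in the same directions, beside 33.5% of all genes (17.1% higher and 16.5% lower). In iE9, DGKA, PRKD2 and PRKCB rose and RASGRP1 fell, 4 of 10 beside 27.1% of all genes (12.6% higher and 14.4% lower). The median log2 fold change of the 10 genes was 0.29 in WT, 0.45 in dE9 and 0.16 in iE9, and that of all genes tested was 0.03, 0.06 and -0.01. Fewer cells of a kind and less RNA per cell cannot be told apart in these bulk samples.

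**Figure D2:**
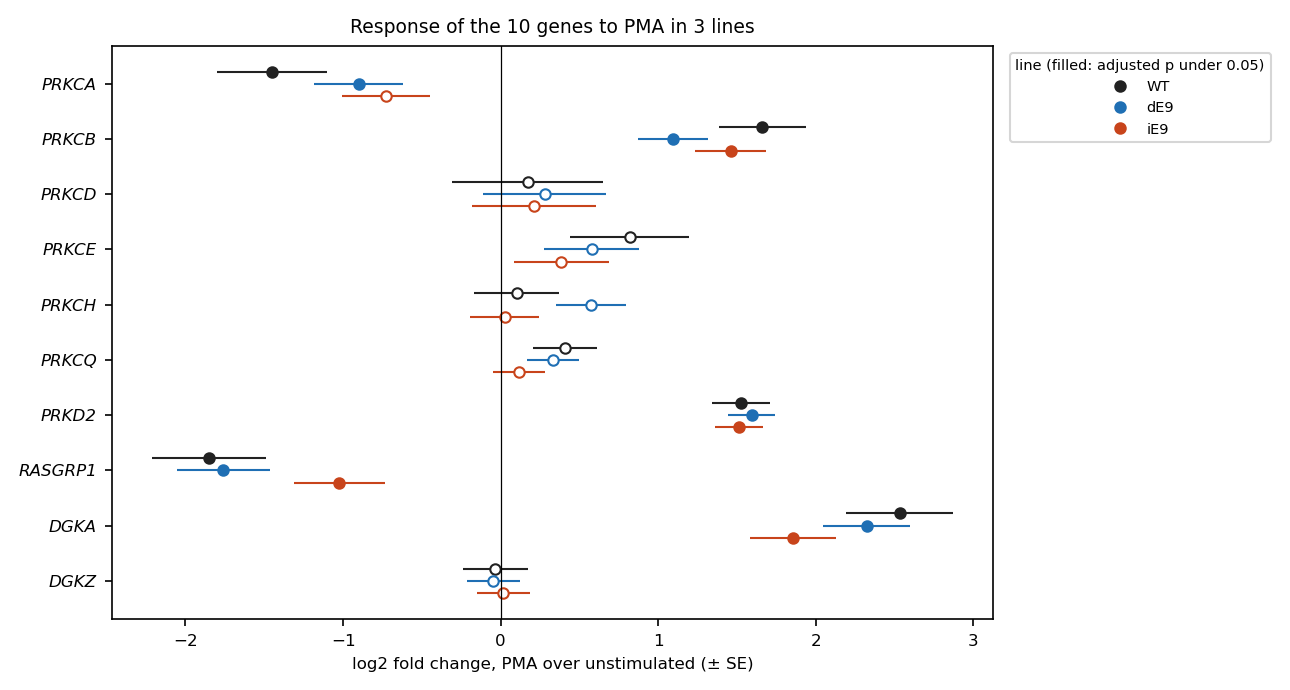
Log2 fold change of PMA over unstimulated cells with its standard error (SE) for the 10 genes in WT, dE9 and iE9. Filled points have an adjusted p under 0.05; DGKA, PRKD2 and PRKCB lie to the right and RASGRP1 to the left in all 3 lines, and DGKZ lies between -0.05 and 0.02.

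PRKCA encodes PKC alpha, a classical isozyme that needs calcium and diacylglycerol. Its level was 41.9 and 44.5 TPM in the unstimulated WT libraries and 13.7 and 20.6 TPM in those with PMA. In dE9 it was 30.0, 35.3 and 42.6 TPM without and 9.31, 18.9 and 29.9 TPM with PMA, and in iE9 it was 48.7, 39.9 and 38.7 TPM without and 29.5, 28.6 and 24.4 TPM with PMA. The PMA libraries were below the unstimulated ones in every line, by a narrow margin in dE9, where the highest PMA library reached 29.88 and the lowest unstimulated one 29.95 TPM. PRKCA fell by 1.45 ± 0.35 on the log2 scale in WT (SE; adjusted p = 0.00862) and by 0.90 ± 0.28 in dE9 (adjusted p = 0.0218). In iE9 the log2 fold change was -0.73 ± 0.28 and did not pass (adjusted p = 0.066), but it did when libraries with the same number were paired within a line (adjusted p = 0.00982). The WT call was lost without the unstimulated or the PMA library numbered 1 (adjusted p = 0.0525 and 0.12), and the dE9 call without unstimulated library 3 or PMA library 2 (0.0879 and 0.0621). The dE9 call was also lost when only the dE9 libraries were fitted (adjusted p = 0.0994).

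PRKCB encodes PKC beta, the other classical isozyme of lymphocytes, and moved the opposite way. WT libraries held 8.31 and 8.75 TPM without PMA and 26.1 and 28.1 TPM with it. Unstimulated dE9 libraries held 7.92, 15.5 and 10.7 TPM against 15.8, 30.6 and 23.3 TPM with PMA, and iE9 libraries 9.45, 10.8 and 12.4 TPM against 24.0, 40.4 and 36.8 TPM. No unstimulated library reached a PMA library of its line, although in dE9 the nearest pair was 15.5 and 15.8 TPM. PRKCB rose by 1.66 ± 0.28 on the log2 scale in WT (adjusted p = 0.00102), 1.10 ± 0.22 in dE9 (adjusted p = 0.00173) and 1.46 ± 0.22 in iE9 (adjusted p = 0.000333).

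PRKCB makes 2 proteins, PKC beta I and PKC beta II, from transcripts that share their first 1863 coding bases and end in different exons. The stretches below are the coding part of these last exons, shown because they are where the isoforms differ. PRKCB-213, the transcript of 671 codons that ends in the beta I tail, uses chr16:24219961-24220110 and PRKCB-211, of 673 codons with the beta II tail, uses chr16:24214658-24214813, both on the plus strand of hg38.
PRKCB-213 tail: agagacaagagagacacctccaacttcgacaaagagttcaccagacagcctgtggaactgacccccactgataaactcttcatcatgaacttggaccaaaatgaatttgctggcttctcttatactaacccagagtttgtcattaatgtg
PRKCB-211 tail: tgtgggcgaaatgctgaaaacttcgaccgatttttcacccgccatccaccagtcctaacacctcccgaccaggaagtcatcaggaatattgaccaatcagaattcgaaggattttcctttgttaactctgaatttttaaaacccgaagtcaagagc
Salmon's estimate of the beta II transcript was 3.85 and 4.72 TPM in unstimulated WT and 16.4 and 16.3 TPM with PMA, and that of beta I was 4.20 ± 0.37 and 10.2 ± 2.14 TPM (SD, n = 2). The beta II share of PRKCB was 46.4% and 53.9% without and 62.7% and 58.0% with PMA in WT, which did not overlap. In dE9 the means were 56.5% ± 11.2 and 65.3% ± 10.3 (n = 3) and in iE9 57.8% ± 5.14 and 58.1% ± 6.59 (n = 3), and the libraries of both lines overlapped. Both tails were thus higher with PMA in the group means of all 3 lines, with beta I at 5.12 and 8.16 TPM in dE9 and at 4.35 and 13.9 TPM in iE9.

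Genes of the calcium-independent PKC isozymes, which need diacylglycerol but not calcium, were called in no line. PRKCQ encodes PKC theta, the isozyme of the T cell contact with an antigen-presenting cell. It stood at 15.2 and 15.2 TPM in unstimulated WT and at 21.4 and 23.6 TPM with PMA, with log2 fold changes of 0.41 ± 0.20 in WT (adjusted p = 0.167), 0.33 ± 0.17 in dE9 (0.139) and 0.12 ± 0.17 in iE9 (0.647), all from edgeR. The WT value passed when only the WT libraries were fitted (adjusted p = 0.00788). PRKCH encodes PKC eta and had log2 fold changes of 0.10 ± 0.27, 0.57 ± 0.22 and 0.03 ± 0.22 in WT, dE9 and iE9. Its dE9 libraries held 5.86, 7.80 and 6.50 TPM without and 13.7, 13.3 and 8.41 TPM with PMA. The adjusted p in dE9 was 0.0594 with edgeR, 0.0411 with DESeq2 and 0.0181 with libraries paired within a line.

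PRKCD encodes PKC delta, an isozyme linked to cell death, and its log2 fold changes were 0.17 ± 0.48 in WT, 0.28 ± 0.39 in dE9 and 0.21 ± 0.39 in iE9. The 3 dE9 libraries with PMA were far apart, at 21.0, 10.3 and 3.84 TPM, while those of iE9 with PMA lay between 12.4 and 13.2 TPM. PRKCE, for PKC epsilon, was scarce throughout, between 0.671 and 2.56 TPM. Its WT libraries held 0.784 and 0.671 TPM without and 1.63 and 1.43 TPM with PMA, a log2 fold change of 0.82 ± 0.38 that did not pass (adjusted p = 0.135).

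The 6 PKC genes were also compared as a sum. Their summed level was 84.4 and 87.6 TPM in unstimulated WT and 84.9 and 99.8 TPM with PMA. In dE9 the sum was 78.2 ± 5.33 and 86.1 ± 8.63 TPM (SD, n = 3) and in iE9 97.2 ± 6.96 and 118 ± 15.1 TPM, and the libraries with and without PMA overlapped in all 3 lines. PRKCA made up 50.2% ± 0.827 of the sum in unstimulated WT and 18.4% ± 3.24 with PMA (n = 2). PRKCB made up 9.92% ± 0.098 and 29.5% ± 1.84. The share of PRKCA was 45.9% ± 6.45 and 22.1% ± 11.1 in dE9 and 43.8% ± 6.91 and 23.6% ± 4.15 in iE9 (n = 3). That of PRKCB was 14.4% ± 4.002 and 26.6% ± 6.05 in dE9 and 11.2% ± 1.15 and 28.3% ± 4.63 in iE9. In TPM, PRKCB was thus above PRKCA in the mean of each line with PMA and below it without, with 2 single libraries as exceptions. In dE9 PMA library 3 PRKCA held 34.0% and PRKCB 26.5%, and in iE9 PMA library 1 PRKCA held 28.3% and PRKCB 22.99%. Of summed CPM, which are not corrected for transcript length, PRKCA with PMA held 28.4% ± 5.52 in WT, 33.4% ± 12.1 in dE9 and 36.01% ± 4.88 in iE9. PRKCB held 36.8% ± 3.76, 33.03% ± 4.12 and 33.4% ± 4.68 in the same groups. With PMA, PRKCA and PRKCB thus lay within their SD of each other in both edited lines on that scale. The mean share of PRKCA was lower and that of PRKCB higher with PMA than without in every line on both scales. These shares were computed after the fold changes were known and carry no test.

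**Figure D3:**
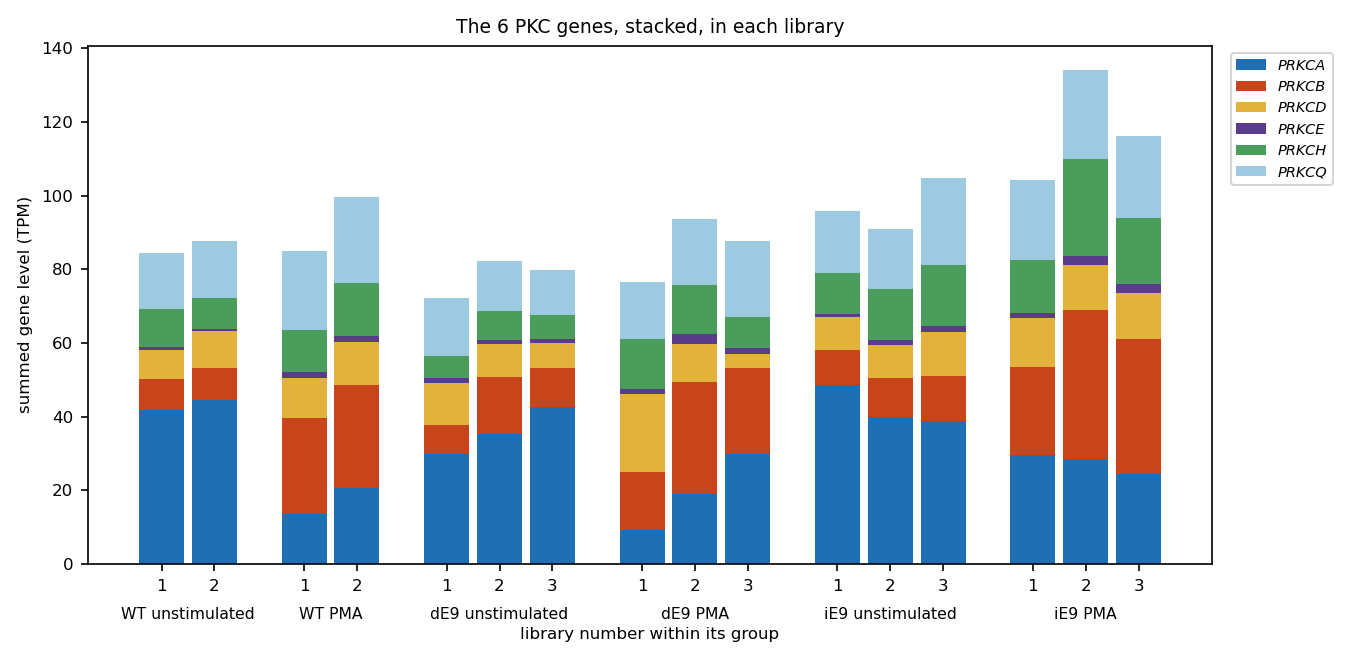
Summed level in TPM of the 6 PKC genes in each library, stacked by gene. The PRKCA part shrinks and the PRKCB part grows with PMA in the means of all 3 lines, while the sums run from 72.2 to 134.1 TPM.

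PRKD2 encodes protein kinase D2, the main protein kinase D of T cells, which binds diacylglycerol and is switched on by PKC. Its level was 26.1 and 31.6 TPM in unstimulated WT and 126 and 96.3 TPM with PMA. In dE9 it went from 27.8, 36.1 and 39.6 TPM to 118, 131 and 123 TPM, and in iE9 from 34.7, 33.5 and 45.8 TPM to 118, 110 and 102 TPM. The lowest PMA library of the series, at 96.3 TPM, was above the highest unstimulated one, at 45.8 TPM. The log2 fold changes were 1.52 ± 0.19 in WT (adjusted p = 0.000116), 1.59 ± 0.15 in dE9 (7.21e-06) and 1.51 ± 0.15 in iE9 (1.33e-05), by edgeR.

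RASGRP1 encodes the diacylglycerol-binding exchange factor that loads Ras with GTP in T cells. Its WT libraries held 64.2 and 73.1 TPM without and 15.5 and 23.7 TPM with PMA. In dE9 the values were 35.9, 38.0 and 84.1 TPM without and 8.92, 16.4 and 19.0 TPM with PMA. In iE9 they were 48.7, 44.4 and 58.0 TPM without and 22.5, 31.8 and 28.1 TPM with PMA. The groups did not overlap in any line, and unstimulated dE9 library 3 stood well above the other 2 of its group. RASGRP1 fell by 1.85 ± 0.36 on the log2 scale in WT (adjusted p = 0.00271), by 1.76 ± 0.30 in dE9 (0.000468) and by 1.02 ± 0.29 in iE9 (0.0169). The iE9 call was lost without unstimulated library 3 (adjusted p = 0.064), without PMA library 1 (0.0578) or PMA library 3 (0.0511), and without both libraries numbered 1 (0.0717), an alternative added after seeing the data.

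DGKA encodes diacylglycerol kinase alpha, which is known as a brake on Ras signalling in unresponsive T cells. Its level was 53.4 and 63.4 TPM in unstimulated WT and 369 in both PMA libraries. In dE9 the libraries held 40.6, 69.6 and 51.4 TPM without and 170, 271 and 427 TPM with PMA, and in iE9 103, 87.5 and 113 TPM without and 457, 358 and 415 TPM with PMA. Every PMA library was above every unstimulated library of the series. DGKA rose by 2.53 ± 0.34 on the log2 scale in WT (5.78-fold, adjusted p = 0.000238), 2.32 ± 0.28 in dE9 (5.01-fold, 3.53e-05) and 1.85 ± 0.27 in iE9 (3.61-fold, 0.000226). DGKZ encodes the other kinase of this kind that is abundant in T cells, and it did not pass the test in any line, with log2 fold changes of -0.03 ± 0.21, -0.05 ± 0.17 and 0.02 ± 0.17. DGKZ levels ran from 41.1 to 47.7 TPM over the 4 WT libraries, from 39.9 to 68.2 TPM over the 6 of dE9 and from 35.5 to 50.8 TPM over the 6 of iE9.

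By a rule set for the called genes with the largest rise and fall, the genes nearest to DGKA were sought by the root mean square difference of centred log2 group means. They were FCGBP, which encodes a mucus-associated protein, at 0.091, the ubiquitin-conjugating enzyme gene UBE2H at 0.1 and TMEM88 at 0.106, over 6 groups. TMEM88 was scarce, at 0.397 CPM without and 3.13 CPM with PMA in WT, so its pattern rests on few counts. Nearest to RASGRP1 were the metalloprotease gene ADAM9 at 0.109, GPSM2 at 0.119 and the glutamine transporter gene SLC1A5 at 0.12.

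The edited lines were then compared with WT and with each other. HDAC7 itself was at 51.9, 53.1 and 168 CPM in unstimulated WT, dE9 and iE9, and at 241, 188 and 351 CPM with PMA. By edgeR it was higher in unstimulated iE9 than in WT (3.24-fold, adjusted p = 0.00698) and dE9 (3.17-fold, 0.00224). With PMA it was higher in iE9 than in dE9 (1.865-fold, 0.0393) and did not pass against WT (0.328). Comparisons of unstimulated iE9 thus hold a difference in HDAC7 level as well as in exon 9 share. In unstimulated cells 0 of the 10 genes passed between dE9 and WT, where 0% of all genes were called by edgeR. There 1 member had an unadjusted p under 0.05, beside 560 of the 18073 genes tested, and DESeq2 called 0 members beside 20 genes. Between iE9 and WT the count was 0 beside 1.38% of all genes. At an unadjusted p under 0.05 there were 2 members beside 2725 genes, and by DESeq2 0 beside 800. PRKCH was higher in iE9 than in dE9 without PMA, the 1 member called there beside 1.72% of all genes. Its levels were 10.95, 13.9 and 16.5 TPM in iE9 and 5.86, 7.80 and 6.50 TPM in dE9, which did not overlap, with WT between them at 10.4 and 8.44 TPM. The log2 difference was 1.03 ± 0.22 (2.04-fold, adjusted p = 0.0325). This call was lost without unstimulated dE9 library 1 or 3 (adjusted p = 0.115 and 0.124), without unstimulated iE9 library 2 or 3 (0.0691 and 0.111), without either WT library with PMA (0.0555 and 0.0541), and when only these groups were fitted (0.057). DGKA was at 1.82 times its dE9 level in unstimulated iE9, a log2 difference of 0.87 ± 0.27 that did not pass with edgeR (adjusted p = 0.123) and did with DESeq2 (0.0443). Between these groups 4 members had an unadjusted p under 0.05, beside 2726 genes, and DESeq2 called 2 members beside 840 genes.

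With PMA, 0 members passed in any of the 3 comparisons of lines. The background was 0% for dE9 against WT, 1.12% for iE9 against WT and 2.61% for iE9 against dE9. These shares are 0, 203 and 471 genes, and with 1 library left out they ran from 0 to 174, from 24 (without WT PMA library 1) to 474, and from 113 (without iE9 PMA library 2) to 1035, each highest without dE9 PMA library 1. In unstimulated cells the same counts were 0, 249 and 311 genes and ran from 0 to 5, from 18 (without unstimulated WT library 1) to 435, and from 110 (without unstimulated iE9 library 1) to 531, again highest without dE9 PMA library 1. With PMA, 0, 1 and 2 members had an unadjusted p under 0.05, beside 459, 2562 and 3450 genes. DESeq2 called 0 members in each, beside 9, 698 and 1285 genes. Whether the lines differed in how far they responded to PMA was tested as an interaction. There edgeR gave 0 members an unadjusted p under 0.05, beside 282 genes for dE9 against WT, 1022 for iE9 against WT and 1239 for iE9 against dE9. DESeq2 called 0 members, beside 1, 53 and 116 genes. By edgeR's adjusted p 0 members passed, with a background of 0% in each of the 3 comparisons. Without dE9 PMA library 1 that background was 22 genes between dE9 and WT and 461 between iE9 and dE9, and 0 members passed with any 1 library left out. The smaller fall of RASGRP1 in iE9 than in WT was a difference of 0.83 ± 0.46 on the log2 scale (adjusted p = 0.946), and that from dE9 was 0.74 ± 0.41 (0.789). For DGKA the response in iE9 minus that in WT was -0.68 ± 0.42 (adjusted p = 0.98). For PRKD2 the same difference was -0.01 ± 0.23 (adjusted p = 1). The comparisons of dE9 and of iE9 with WT share the WT libraries.

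Transcripts within the genes were then compared, as shares of the gene's TPM that Salmon estimated. Of the annotated transcripts, 26 of the 10 genes held a mean share of at least 10% in some group. With 2 libraries against 2 an exact permutation test cannot give a p under 0.333, and with 3 against 3 not under 0.1, so no share could pass. The shares did not overlap for 15 of 26 in WT, beside 34.9% of 43386 such transcripts of all genes, for 6 in dE9 beside 15.2% and for 4 in iE9 beside 12.5%.

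The full-length PRKCH transcript took a smaller share with PMA in all 3 lines. PRKCH-201 codes for 683 codons, and PRKCH-211 for 522, which are the same bases to the end but without the first 161 codons, and both hold the 2 C1 signatures. PRKCH-201 held 83.0% and 51.2% of PRKCH in unstimulated WT and 38.8% and 45.0% with PMA. In dE9 it held 73.0%, 73.5% and 64.0% without and 25.0%, 59.5% and 63.8% with PMA, and in iE9 86.7%, 52.0% and 65.2% without and 30.8%, 34.3% and 46.1% with PMA. The groups did not overlap in any line, though in dE9 the nearest libraries were 63.96% and 63.82%. The mean difference was -25.2 percentage points in WT, -20.7 in dE9 and -30.9 in iE9, and leaving out 1 library at a time gave -9.26 in WT without unstimulated library 1 and -8.51 in dE9 without PMA library 1. In TPM, PRKCH-201 was at 6.46 and 5.47 in WT, 4.72 and 5.56 in dE9, and 9.15 and 7.22 in iE9 without and with PMA, so its mean was higher with PMA in dE9 and lower in WT and iE9. PRKCH-211 was at 2.85 and 5.62 in WT, 1.97 and 4.73 in dE9, and 3.86 and 8.37 in iE9. In TPM the libraries of PRKCH-201 overlapped in all 3 lines. Those of PRKCH-211 overlapped in dE9 (up to 2.34 without and from 2.30 TPM with PMA) and not in WT or iE9. Unstimulated iE9 libraries held 0 to 6.405 TPM of PRKCH-211. The share of PRKCH-211 overlapped in all 3 lines.

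The mean share of PRKCD-202 was higher with PMA in dE9 and lower in iE9. It held 27.3% ± 6.48 of PRKCD in unstimulated dE9 and 64.8% ± 21.7 with PMA (n = 3), with no overlap, but 61.9% ± 14.1 and 46.1% ± 12.1 in iE9, which overlapped. In WT it held 37.3% ± 2.55 and 43.0% ± 14.2 (n = 2), which also overlapped. The difference between the lines in this share was not tested.

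**Figure D4:**
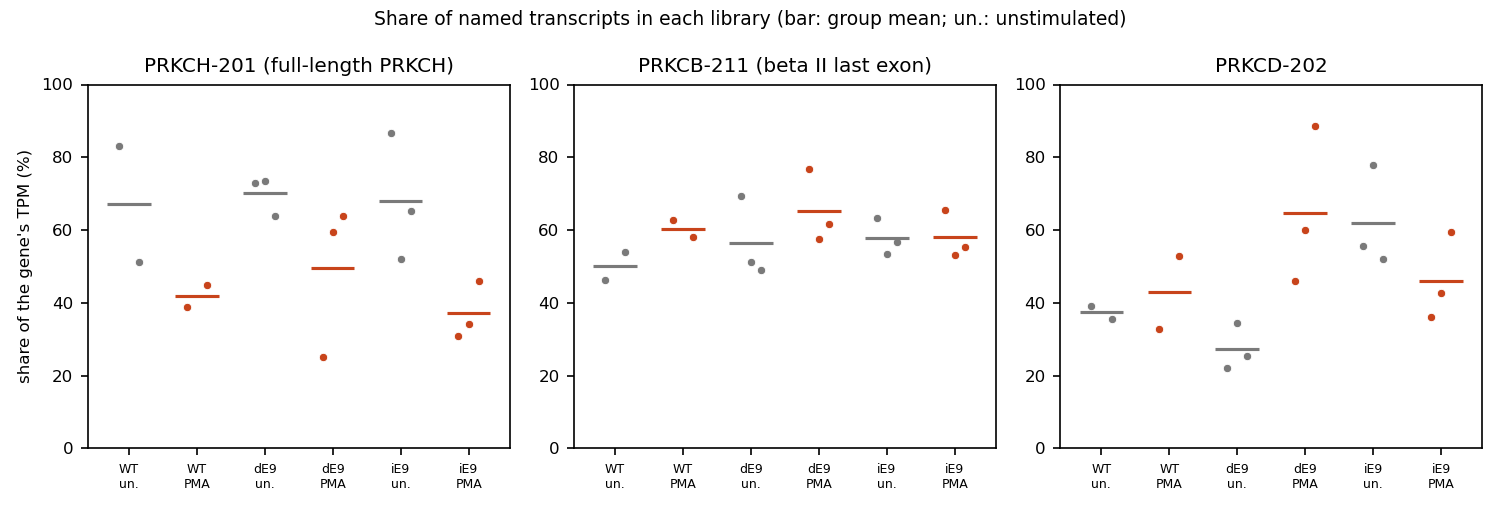
Share of the gene's TPM held by PRKCH-201, PRKCB-211 and PRKCD-202 in each library, in percent, with group means as bars. PRKCH-201 lies lower with PMA than without in every line, at group means of 41.9% against 67.1% in WT, 49.4% against 70.2% in dE9 and 37.1% against 68.0% in iE9.

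The genes around the receptors were taken from 7 lists of 106 genes in all. Their counts stand beside the 22.3% of all genes called in WT, 33.5% in dE9 and 27.1% in iE9. Among other PKC, protein kinase D and RASGRP genes, 6 of 8 were tested, 0 of them passed in WT, 2 rose in dE9 (33.3% of those tested) and 1 in iE9 (16.7%). PRKD3, the other protein kinase D gene expressed here, was at 36.3 and 39.3 CPM without and with PMA in WT, and rose by 0.72 ± 0.24 on the log2 scale in dE9 (adjusted p = 0.0291) and by 1.68 ± 0.24 in iE9 (0.000193). The dE9 call of PRKD3 was lost with libraries paired within a line (adjusted p = 0.054), when only the dE9 libraries were fitted (0.0972) and with an offset for effective length (0.155). It was also lost without unstimulated dE9 library 2 or 3 (0.065 and 0.104) or dE9 PMA library 2 or 3 (0.1 and 0.112). The response of PRKD3 in iE9 minus that in WT was 1.57 ± 0.37 and did not pass (adjusted p = 0.352). RASGRP2, the most abundant other RASGRP gene, was called in no line. Of 5 tested genes among the other diacylglycerol kinases, 1 rose and 1 fell in WT and in dE9, and 2 rose and 1 fell in iE9, which is 40%, 40% and 60% of so few genes. DGKQ, for the theta kinase, rose by 1.22 ± 0.30 in WT (adjusted p = 0.0102), and DGKD, for the delta kinase, fell by 0.58 ± 0.18 (0.0316). The DGKQ call in WT was lost without unstimulated library 1 or PMA library 2, and that of DGKD without any 1 of the 4 WT libraries or unstimulated dE9 library 1. In iE9 the fall of DGKD was 0.42 ± 0.15 (adjusted p = 0.0482), and 20 of 24 alternatives lost this call.

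Of the 21 genes of other proteins with a C1 domain, all tested, 4 rose and 2 fell in WT, 4 and 3 in dE9, and 5 and 2 in iE9. These shares of 28.6%, 33.3% and 33.3% lie near those of all genes (22.3%, 33.5% and 27.1%). VAV3, a guanine nucleotide exchange factor, rose by 2.88 ± 0.41 in WT (adjusted p = 0.000396), and the anchoring protein gene AKAP13 by 2.27 ± 0.37 (0.000905). CHN1, for a Rac-inactivating protein whose C1 domain binds phorbol esters, fell by 2.19 ± 0.39 (0.00157). All 3 were called in the same direction in the edited lines. VAV1, the relative of VAV3 that acts below the T cell receptor, rose by 1.09 ± 0.26 in WT (adjusted p = 0.00858), a call lost without unstimulated library 1. In iE9 its log2 fold change of 0.45 ± 0.21 did not pass (adjusted p = 0.124), but did with libraries paired within a line (0.00739).

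On the supply side, 13 of 14 phospholipase C genes were tested, and 2 rose and 2 fell in WT, 5 and 2 in dE9, and 4 and 2 in iE9. These are 30.8%, 53.8% and 46.2% of those tested, beside 22.3%, 33.5% and 27.1% of all genes. PLCG1, the phospholipase C of the T cell receptor, rose by 1.12 ± 0.27 in WT (adjusted p = 0.0087) and PLCH1 by 3.76 ± 0.40 (4.67e-05), while PLCG2 fell by 0.97 ± 0.23 (0.00772) and PLCB1 by 1.46 ± 0.47 (0.0368). PLCB1 did not pass in dE9, at -0.28 ± 0.37 (adjusted p = 0.599), or in iE9, at 0.16 ± 0.37 (0.791). Of 16 tested genes for other enzymes that make or use diacylglycerol, 3 rose and 0 fell in WT, 3 and 1 in dE9, and 2 and 2 in iE9, shares of 18.8%, 25% and 25% that lie below those of all genes. LPIN1, for a phosphatidate phosphatase that makes diacylglycerol, rose by 1.09 ± 0.24 in WT (adjusted p = 0.0059), 0.97 ± 0.20 in dE9 (0.00181) and 1.02 ± 0.20 in iE9 (0.00181). PLD2, for a phospholipase D, rose by 0.91 ± 0.28 in WT (0.0307) and CDS2, which draws on phosphatidic acid, by 0.59 ± 0.20 (0.043). CDS2 did not pass in iE9 (adjusted p = 0.106), but did with libraries paired within a line (0.0196). The WT calls of PLCG2, PLCB1, PLD2 and CDS2 were each lost without any 1 of the 4 WT libraries, and those of PLCG1 and LPIN1 without unstimulated library 1 or PMA library 2.

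Of 14 genes for PKC maturation and turnover, 0 rose and 3 fell in WT, 1 and 3 in dE9, and 1 and 4 in iE9. These are 21.4%, 28.6% and 35.7%, beside 22.3%, 33.5% and 27.1% of all genes. Among those that fell in WT were HSP90AA1 and HSP90AB1, chaperones that PKC needs to mature, by 1.54 ± 0.22 and 1.51 ± 0.20 (adjusted p = 0.000407 and 0.000208). Among 24 targets and effectors downstream, 6 rose and 1 fell in WT, 7 and 2 in dE9, and 9 and 2 in iE9, or 29.2%, 37.5% and 45.8% of the list. MALT1, which carries the PKC signal to NF-kB, rose by 1.04 ± 0.24 in WT (adjusted p = 0.00775). SOS2, another Ras activator, rose by 1.15 ± 0.22 (0.00237) and RASA1, a Ras inactivator, by 1.83 ± 0.34 (0.00199). In WT the call of MALT1 was lost without unstimulated library 2 or PMA library 2. The medians of the lists in WT ran from -0.17 to 0.34 on the log2 scale, beside 0.03 for all genes tested.

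**Figure D5:**
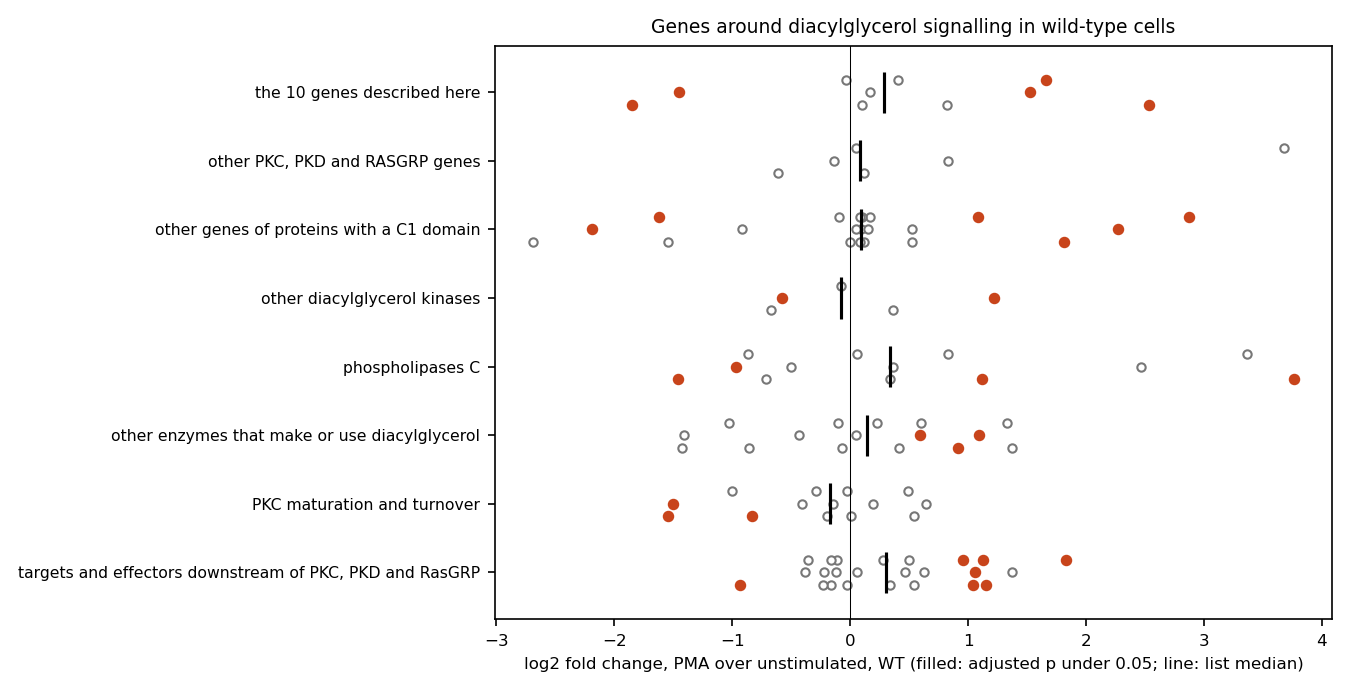
Log2 fold change of PMA over unstimulated WT cells for each tested gene of the 10 described here and of the 7 surrounding lists, with list medians as black lines. Filled points have an adjusted p under 0.05; the list medians lie between -0.17 and 0.34 while single genes reach 3.76 (PLCH1) and -2.19 (CHN1) among those called.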

How the data were processed

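Polyadenylated RNA of 16 libraries was quantified by the authors with Salmon and compared with DESeq2 on hg38, per the submitters' processing notes, with no versions given in the sources used here. The authors deposited estimated counts and TPM values per transcript for each library, per the file headers, and a gene-level TPM table whose values equalled the sums made here. Transcripts matched GENCODE release 29 in 205870 of 205870 cases. Estimated counts were summed per gene, rounded to whole numbers and tested with edgeR 4.0.16 in R 4.3.3 (quasi-likelihood F test, two-sided, TMM, filterByExpr, 1 coefficient per group over all 16 libraries), which left 18073 of 33304 genes with a count. Every adjusted p in the text is from this fit unless another tool is named, and DESeq2 1.42.0 was an alternative. CPM are TMM-scaled counts. Gene levels are TPM summed over all annotated transcripts of a gene, coding or not, with the standard deviation (SD) between libraries. Transcript shares are Salmon estimates, which divide reads between similar transcripts, and are compared by ranges and an exact permutation test. Within dE9 and iE9, libraries of the same number deviated together (correlations of 0.19 to 0.441), highest for number 1 of iE9. Unlike numbers in iE9 also reached 0.153 (unstimulated 2 with PMA 3) and 0.085 (unstimulated 3 with PMA 2), and all other unlike numbers were negative. In WT the correlation was 0.073, which with 2 libraries a group is 1 value for both pairs. Values paired within a line are therefore given where they change a call. All 10 genes are named in every comparison. From each surrounding list the genes with the smallest adjusted p in WT were named, or the most abundant where fewer than 2 were called, and a few genes that this rule names are not reported here. Members and lists were chosen with earlier results of these data known. The text prints coding sequences of GENCODE and no protein sequences.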

Additional observations from a re-analysis of the deposited data

How the results depend on the processing

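Each PMA result of the 10 genes was recomputed under 24 alternatives, 16 of which left out 1 library. Of the 14 called results, 11 were called under every alternative and 0 changed sign. The exceptions were PRKCA in WT and dE9 and RASGRP1 in iE9, as given above. Of the 16 results not called, 13 were called under none, and 6 changed sign under at least 1 alternative. The number of members called with PMA was 4 to 5 in WT, 4 to 6 in dE9 and 3 to 5 in iE9 with 1 library left out, and 5 to 6, 4 to 6 and 3 to 5 under the other settings. With the replicate number as a block it was 5, 5 and 4, and the pairing within a line, added after seeing the data, called 6590 of all genes in WT, against 4038 without it. Between iE9 and dE9 without PMA the 1 call became 2 with no filter on low counts and with DESeq2. All genes called there were 1319 and 840, against 311 in the main fit. The member count was 0 with only the libraries compared and 0 with an offset for effective length, and ranged from 0 to 2 with 1 library left out. With PMA, 1 member, RASGRP1, passed between these lines with no filter (adjusted p = 0.012), beside 1801 of all genes, against 471 with the filter. With 1 library of the line left out, the number of transcripts with no overlap was 18 to 24 in WT. It was 7 to 13 in dE9 and 5 to 9 in iE9, against 15, 6 and 4 with all libraries. The range of a group cannot widen when a library is removed, so groups separate more easily. These higher counts therefore do not show that the result is stable. They cannot be weighed against the counts with all libraries, because no share of all transcripts is given beside them. The number fell to 2 in iE9 with protein-coding transcripts alone, also with no share of all transcripts beside it, so this fall cannot be weighed either. DGKD in dE9 turned from -0.64 to 0.071 on the log2 scale with the offset for effective length. With CPM in place of TPM, PRKCA held 66.2%, 61.2% and 59.7% of the sum of the 6 PKC genes in unstimulated WT, dE9 and iE9, and 28.4%, 33.4% and 36.01% with PMA. In the edited lines with PMA its mean share was no longer below that of PRKCB, but within the SD of it. Counts of all genes called with PMA ranged from 1419 to 8284 in WT, from 4602 to 8174 in dE9 and from 3282 to 7200 in iE9. Pairing within a line called 35 genes for the response of iE9 against WT and 61 for iE9 against dE9, where 0 were called without it. Apart from the effect of fewer libraries on overlap, the causes of these changes were not tested. With 2 or 3 libraries a group, a p that misses the threshold does not show that levels did not differ.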

Other observations

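The balance between the Ras activator and the enzymes that remove its lipid ligand was computed per library after the fold changes were known, and it is a description with no test. The gene sums also count transcripts not annotated as coding, such as DGKA-218. Without and with PMA it held 10.15% and 21.4% of DGKA in WT, 15.6% and 22.1% in dE9, and 17.1% and 17.3% in iE9. These shares overlapped in every line. The TPM of RASGRP1 divided by the summed TPM of DGKA and DGKZ was 0.669 ± 0.0144 in unstimulated WT (SD, n = 2), 0.501 ± 0.232 in dE9 and 0.352 ± 0.0307 in iE9 (n = 3). With PMA it was 0.0472 ± 0.0139 in WT, 0.0435 ± 0.00807 in dE9 and 0.0622 ± 0.0177 in iE9. The highest PMA library, at 0.0798, was below the lowest unstimulated library, at 0.319. DGKA over DGKZ was 1.31 ± 0.02 in unstimulated WT, 1.11 ± 0.447 in dE9 and 2.42 ± 0.358 in iE9, and 8.04 ± 0.0981, 6.25 ± 3.52 and 9.85 ± 1.61 with PMA.

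The 3 dE9 libraries with PMA had the largest SD of the 6 groups for PRKCA, PRKCD, DGKA and DGKZ. Library 1 had the lowest PRKCA (9.31 TPM), RASGRP1 (8.92 TPM), DGKA (170 TPM) and PRKCB (15.8 TPM) of the 3 and the highest PRKCD (21.0 TPM) and DGKZ (68.2 TPM).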
